A study of Mus musculus with 6 samples.

Results

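The genes described here are 10 that act when spermatogonia, the dividing germ cells of the testis, commit to differentiation and enter meiosis: *Kit*, *Kitl*, *Stra8*, *Dmrt1*, *Sohlh1*, *Sohlh2*, *Foxo1*, *Ccnd2*, *Uchl1* and *Dnmt3b*. They were taken by symbol from the 23253 genes listed in any of 6 libraries of poly(A)-selected testis RNA, and all 10 were listed in all 6 libraries. The study compared 3 libraries labelled L3mbtl2 cKO (conditional knockout) with 3 labelled control, all from testes of C57BL/6 mice aged 8 months, to ask how loss of *L3mbtl2*, a subunit of the Polycomb complex PRC1.6, alters testis RNA. The labels name no deleter strain and no cell type of deletion, and nothing in them tells whether each library is a different mouse. The p-values therefore cover library-to-library spread only, part of which may be technical.

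In the tubule, Sertoli cells display KIT ligand, the product of *Kitl*, and differentiating spermatogonia carry its receptor, the tyrosine kinase KIT. The signal runs through PI3 kinase and AKT, which keep the transcription factor FOXO1 out of the nucleus, and it drives the divisions in which cyclin D2 takes part. The helix-loop-helix factors SOHLH1 and SOHLH2 promote *Kit* expression, DMRT1 holds spermatogonia in mitosis, and STRA8, induced by retinoic acid, opens meiotic prophase. Several of these genes are not private to germ cells: Leydig cells, the steroid-making cells between the tubules, also make *Kit*, and Sertoli cells also make *Dmrt1*. In bulk RNA, fewer cells of a type and less RNA per cell cannot be told apart.

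The promoters of the genes at the ends of the range of differences, *Kit*, *Kitl* and *Sohlh1*, and of *Stra8*, which answers to retinoic acid, are shown for reference. Each covers 250 bases before to 50 bases after the start site, from RefSeq on GRCm38.p6, whose chromosomes are those of mm10, 5′ to 3′ on the strand of the gene. For *Kitl* and *Stra8* this start site lies inside the gene span printed further down, not at its first base. Capitals mark CANNTG, the E-box that helix-loop-helix factors bind, and AGGTCA on either strand, the half-site of retinoic acid receptors.
Kit, chr5:75574737-75575036, plus strand: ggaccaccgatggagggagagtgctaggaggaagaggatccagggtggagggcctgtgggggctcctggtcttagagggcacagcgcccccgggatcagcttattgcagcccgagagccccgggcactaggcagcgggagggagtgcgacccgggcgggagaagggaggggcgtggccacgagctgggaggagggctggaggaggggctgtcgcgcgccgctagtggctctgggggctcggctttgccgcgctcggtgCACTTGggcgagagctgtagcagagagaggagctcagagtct
Kitl, chr10:100015571-100015870, plus strand: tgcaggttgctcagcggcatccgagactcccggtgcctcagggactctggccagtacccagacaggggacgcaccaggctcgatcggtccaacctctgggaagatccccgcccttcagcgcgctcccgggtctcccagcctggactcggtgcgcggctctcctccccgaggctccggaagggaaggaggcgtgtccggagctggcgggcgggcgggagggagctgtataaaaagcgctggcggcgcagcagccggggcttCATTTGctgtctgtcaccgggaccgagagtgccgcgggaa
Sohlh1, chr2:25847199-25847498, minus strand: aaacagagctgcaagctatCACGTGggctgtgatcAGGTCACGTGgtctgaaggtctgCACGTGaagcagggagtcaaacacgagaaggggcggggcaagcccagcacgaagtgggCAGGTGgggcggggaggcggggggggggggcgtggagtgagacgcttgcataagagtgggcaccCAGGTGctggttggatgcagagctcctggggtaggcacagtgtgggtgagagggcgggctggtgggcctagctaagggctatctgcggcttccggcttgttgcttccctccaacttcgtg
Stra8, chr6:34920698-34920997, plus strand: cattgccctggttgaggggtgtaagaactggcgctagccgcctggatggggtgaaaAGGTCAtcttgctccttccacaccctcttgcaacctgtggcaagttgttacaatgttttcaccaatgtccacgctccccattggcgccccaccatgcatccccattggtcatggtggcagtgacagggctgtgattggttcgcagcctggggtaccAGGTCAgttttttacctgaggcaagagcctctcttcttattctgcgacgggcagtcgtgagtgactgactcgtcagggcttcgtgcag

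The windows differed in their letters. *Sohlh1* held 5 E-boxes, as did 2.10% of 32851 RefSeq promoter entries with at least 5, and 3 of them were CACGTG, the form bound by MGA with MAX, DNA-binding subunits of PRC1.6. At least 3 CACGTG were found in 29 of all entries (0.0883%), and 7.15% had any. *Kit* and *Kitl* each held a single E-box, 8 and 10 bases after the start site, where 72.3% of entries held at least 1. *Stra8* held no E-box and 2 AGGTCA, at positions -194 and -38 from the start site, where 16.3% of entries held the half-site and 1.81% held it at least 2 times. One AGGTCA of *Sohlh1* overlaps an E-box. *Kit*, *Kitl* and *Sohlh1* also held 1, 3 and 3 copies of GGGCGG, a GC box, on either strand (2 of those in *Kitl* overlap), and 35.7% of entries held any. Of the other members, *Sohlh2*, *Foxo1*, *Uchl1* and *Dnmt3b* were in the table; *Dmrt1* and *Ccnd2* were not used here. The motifs were counted after the expression values were known, and a match is only a description of the letters.

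Libraries are named by their labels because the targeted gene goes against them. For *L3mbtl2* itself (Entrez 214669, chromosome 15, 81663889 to 81688315) RSEM estimated 1030, 1105 and 1031 reads with the cKO label and 658, 705 and 673 with the control label, a log2 fold change of 0.67 (SE 0.10; edgeR adjusted p = 0.166). The adjusted p was 0.000495 in DESeq2 and 0.00848 in edgeR without control replicate 2 (0.000495 to 0.377 over 14 alternatives). Per length the gap was smaller, with 16.3 ± 0.663 FPKM with the cKO label, against 14.2 ± 0.660 with the control label (limma log2 0.19, SE 0.09, adjusted p = 0.224). Its mean transcript length was 3493 ± 4.83 bases with the cKO label and 2717 ± 106 with the control label. The genotype in the table names is the reverse of that in the titles for the same libraries. All directions given here go by the titles; an exchange of labels would invert them. The 3 libraries labelled control were also unlike each other. Their pairwise correlations of log2 CPM ran from 0.937 to 0.972, against 0.981 to 0.982 among those labelled cKO, and control replicate 2 correlated with those labelled cKO at 0.980 to 0.982. Totals ran from 17689205 to 18822050 expected counts per library, and the 10 genes had between 48 and 2026 counts in each, so counting error is small for *Kit*, *Kitl* and *Uchl1* and larger for *Sohlh1*.

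As a group the 10 genes were mostly lower in the libraries labelled cKO, but no gene passed the test across all genes. The median log2 fold change was -0.53, with 9 genes lower and 1 higher, whereas all 18269 genes tested had a median of -0.005 with 50.5% lower. In 8 of the 10, all 3 libraries labelled cKO lay below all 3 labelled control; 19.8% of all tested genes did so. edgeR's quasi-likelihood test called 0 of the 10 at an adjusted p of 0.05, and it called 0% of all genes in either direction. Its lowest adjusted p over all genes was 0.166. Genes of unlike unadjusted p shared that value, such as *Dmrt1* (edgeR unadjusted p = 0.0031) and *Ccnd2* (0.0229). At an unadjusted p of 0.05, 6 of the 10 were lower and 0 higher, where 18.8% of all genes were lower and 8.85% higher. DESeq2 called *Kit*, *Kitl*, *Dmrt1* and *Foxo1* lower, 4 of 10, and none higher, where it called 7.66% of all genes lower and 0.405% higher. Without control replicate 2, edgeR called those 4 with *Ccnd2* and *Uchl1*, 6 of 10, where it called 20.7% of all genes lower and 11.0% higher. Without control replicate 3 it called 0 of the 10, 0% of all genes lower and 0.0108% higher.

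**Figure D1:**
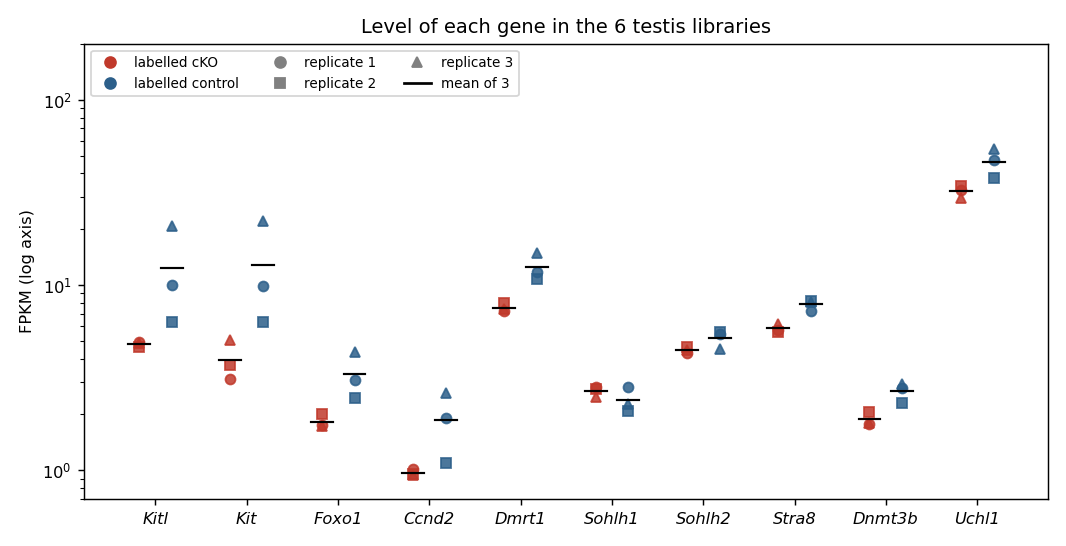
FPKM on a log axis for the 10 genes in each library, labelled cKO left and labelled control right of each name, with bars at the mean of 3 libraries and shapes for replicate numbers. The control points of Kitl and Kit are spread from 6.32 to 20.8 and from 6.35 to 22.2 FPKM, while the cKO points of most genes lie close together.

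Ligand and receptor differed most. *Kitl* (Entrez 17311, mm10 chromosome 10, 100015615 to 100100416), the ligand, had 4.91, 4.61 and 4.87 FPKM in the libraries labelled cKO, against 10.1, 6.32 and 20.8 FPKM in those labelled control. The cKO libraries were within 1.07-fold of each other in TMM-scaled CPM, the controls within 3.16-fold, and the groups did not overlap. Its log2 fold change was -1.26 (SE 0.37), a 2.40-fold difference, with an edgeR adjusted p of 0.166 and a DESeq2 adjusted p of 0.0155 (0.00905 to 0.377 over 14 alternatives). *Kit* (Entrez 16590, chromosome 5, 75574987 to 75656722), the receptor, had 3.10, 3.72 and 5.02 FPKM in the libraries labelled cKO, against 9.84, 6.35 and 22.2 FPKM in those labelled control. Again the groups did not overlap, and the highest cKO library, replicate 3, came near the lowest control, replicate 2. The log2 fold change of *Kit* was -1.59 (SE 0.42), a 3.0-fold difference, with an adjusted p of 0.166 in edgeR and 0.00833 in DESeq2 (0.00833 to 0.377 over 14 alternatives).

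A single control library set the size of both. In TMM-scaled CPM, control replicate 3 stood 5.15-fold above the cKO mean for *Kit* and 3.99-fold for *Kitl*, while control replicate 2 stood 1.55-fold and 1.26-fold above it. Without control replicate 3 the edgeR log2 fold changes were -0.95 (SE 0.22) for *Kit* and -0.68 (SE 0.17) for *Kitl*, each with an adjusted p of 0.170. Without control replicate 2 they were -1.87 (SE 0.32) and -1.54 (SE 0.25), with adjusted p of 0.00967 and 0.00905. The direction was the same with any library left out, and the size was not settled by these 6 libraries.

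The balance of receptor and ligand differed by less than the test could separate. *Kit* made up 37.8, 43.7 and 49.8% of the summed *Kit* and *Kitl* counts in the libraries labelled cKO, and 48.4, 49.2 and 50.5% in those labelled control. On average the share was 43.8 ± 5.99% with the cKO label, against 49.4 ± 1.06% with the control label (SD over 3 libraries), and the exact two-sided permutation test gave p = 0.3, where 0.1 is the smallest that 3 against 3 allows. The controls, which differed 3.33-fold among themselves in *Kit* CPM, kept shares within 48.4 to 50.5%, and the cKO libraries varied more. The difference of -5.63 points shrank to -2.65 without cKO replicate 1, which had the lowest share. It grew to -8.64 without cKO replicate 3, whose share lay within the range of the controls.

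The deposited tables give *Kit* a single value over 2 RefSeq transcripts. They differ at the end of exon 9, in the part that encodes the stretch outside the membrane, by 12 bases (mm10 chr5:75639147-75639158, plus strand), shown in capitals with 9 bases on each side as GENCODE M21 gives them. In that annotation they also differ elsewhere, with 5214 bases for the transcript with the insert and 5241 for the one without it. The mean length of *Kit* given below, 5194 to 5199 bases, lies under both. They cannot therefore both be the lengths that RSEM used.
Kit transcript with the insert: catttaaagGTAACAACAAAGagcaaatcc
Kit transcript without the insert: catttaaagagcaaatcc

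RSEM reports an abundance-weighted transcript length, which moves when transcripts are used in other proportions. For *Kit* it was 5198, 5199 and 5194 bases in the libraries labelled cKO and 5196, 5195 and 5195 bases in those labelled control. The groups overlapped within a range of 5.18 bases, and no difference between them was detectable in this measure (exact permutation p = 0.4). The lengths that RSEM used for the single transcripts are not given. The range can therefore not be turned into shares of the transcripts, and libraries may differ in their use by more than it seems to show. A shortened *Kit* transcript of haploid germ cells, which starts inside the gene, has no value of its own in these tables. *Kitl* and *Stra8* each had 2 transcripts, of which 1 was assembled by the submitters. The length of *Kitl* ran from 5392 to 5403 bases in the libraries labelled cKO and from 5388 to 5417 in those labelled control (exact p = 0.5). For *Stra8* it was 1455 bases in cKO replicate 3 and between 1427 and 1433 bases in the other 5 libraries (exact p = 0.2). *Dnmt3b*, with 12 transcripts of which 3 were assembled by the submitters, varied most, from 3508 to 4015 bases in the libraries labelled cKO and from 3673 to 3728 in those labelled control (exact p = 1.0). The other 6 genes have a single transcript in the tables and a fixed length.

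Downstream of the receptor, *Foxo1* and *Ccnd2* were lower in the libraries labelled cKO without overlap. *Foxo1* (Entrez 56458, chromosome 3, 52268337 to 52350109), the transcription factor that PI3 kinase signalling restrains, had 1.75, 2.01 and 1.73 FPKM in the libraries labelled cKO, against 3.08, 2.46 and 4.36 FPKM in those labelled control. Its log2 fold change was -0.74 (SE 0.21; edgeR adjusted p = 0.166, DESeq2 adjusted p = 0.0401, range over 14 alternatives 0.0141 to 0.377). *Ccnd2* (Entrez 12444, chromosome 6, 127125162 to 127152188), cyclin D2, had 1.01, 0.95 and 0.94 FPKM in the libraries labelled cKO, against 1.92, 1.09 and 2.62 FPKM in those labelled control, the lowest means of the 10 genes. Here control replicate 2 lay only 1.09-fold above the cKO mean in CPM. The log2 fold change of *Ccnd2* was -0.85 (SE 0.30; edgeR adjusted p = 0.166), and neither edgeR nor DESeq2 (adjusted p = 0.0804; 0.0106 to 0.377 over 14 alternatives) called it with all libraries. Without control replicate 3 its log2 fold change was -0.55 (SE 0.24), and without control replicate 2 it was -1.09 (SE 0.19).

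Among the transcription factors of spermatogonia, the groups stood apart for *Dmrt1* and overlapped for both SOHLH genes. *Dmrt1* (Entrez 50796, chromosome 19, 25505618 to 25604328), which keeps spermatogonia mitotic, had 7.23, 7.96 and 7.46 FPKM in the libraries labelled cKO, against 11.77, 10.82 and 14.96 FPKM in those labelled control. All 3 controls stood clear of the cKO libraries, replicate 2 included, at 1.38-fold above the cKO mean in CPM. It had the lowest edgeR p of the 10 genes, rank 88 of 18269, with a log2 fold change of -0.63 (SE 0.15; adjusted p = 0.166) and a DESeq2 adjusted p of 0.0218 (0.0144 to 0.377 over 14 alternatives). *Sohlh1* (Entrez 227631, chromosome 2, 25842995 to 25847248) had 2.82, 2.74 and 2.5 FPKM in the libraries labelled cKO, against 2.82, 2.09 and 2.27 FPKM in those labelled control. It was the only one of the 10 with a positive log2 fold change, 0.27 (SE 0.23; edgeR adjusted p = 0.441), on between 48 and 67 counts per library. *Sohlh2* (Entrez 74434, chromosome 3, 55182044 to 55209957) had 4.31, 4.65 and 4.47 FPKM in the libraries labelled cKO, against 5.43, 5.56 and 4.5 FPKM in those labelled control, so that in FPKM control replicate 3 fell among the cKO libraries. Its log2 fold change was -0.11 (SE 0.16; adjusted p = 0.661). The groups overlapped for both SOHLH genes, which does not show that their levels were equal.

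*Stra8*, the switch into meiosis, was lower by a small and even margin. *Stra8* (Entrez 20899, chromosome 6, 34920163 to 34939344) had 5.74, 5.55 and 6.19 FPKM in the libraries labelled cKO, against 7.27, 8.19 and 8.13 FPKM in those labelled control. The groups did not overlap, the controls were within 1.18-fold of each other in CPM, and control replicate 2 was the highest of the 6 libraries. The log2 fold change was -0.32 (SE 0.16), a 1.25-fold difference that neither edgeR (adjusted p = 0.217) nor DESeq2 (0.308) called, with adjusted p of 0.155 to 0.438 over 14 alternatives.

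The remaining genes were also lower in the libraries labelled cKO without overlap. *Uchl1* (Entrez 22223, chromosome 5, 66676121 to 66687234), a deubiquitinase of early spermatogonia and neurons, had the highest FPKM of the 10, with 32.6, 34.4 and 29.5 in the libraries labelled cKO, against 47.3, 37.6 and 54.2 in those labelled control (log2 -0.42, SE 0.14, edgeR adjusted p = 0.166). *Dnmt3b* (Entrez 13436, chromosome 2, 153649411 to 153687730), a de novo DNA methyltransferase, had 1.78, 2.06 and 1.80 FPKM in the libraries labelled cKO, against 2.79, 2.30 and 2.93 FPKM in those labelled control (log2 -0.40, SE 0.17, edgeR adjusted p = 0.182). In both, the lowest control was again replicate 2.

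**Figure D2:**
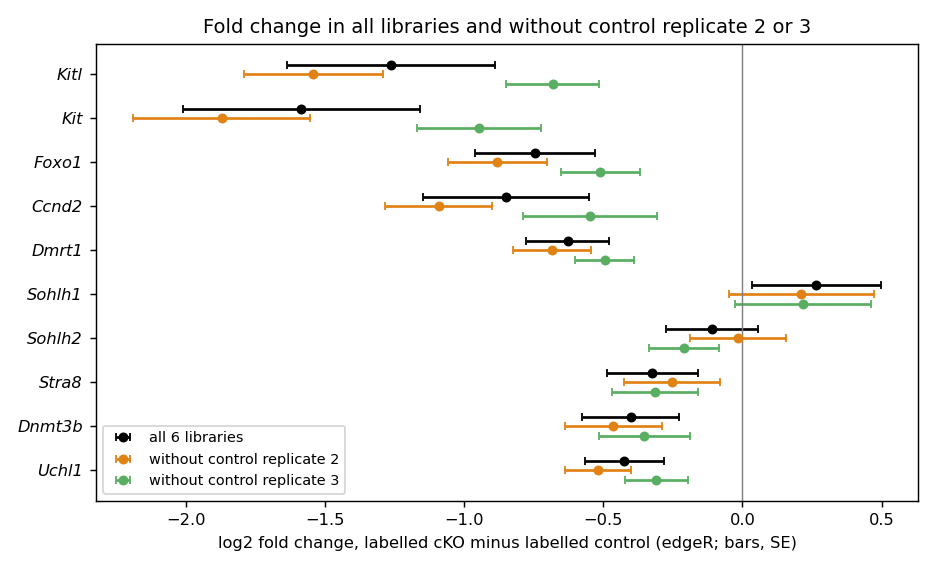
Log2 fold change, labelled cKO minus labelled control, from edgeR for each gene, with the SE as bars, in all 6 libraries and without control replicate 2 or 3. Kit is at -1.59 with all libraries and at -0.95 without control replicate 3, and Sohlh1 is above 0 in all 3 fits.

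Levels can be set in order per length, in FPKM. In the libraries labelled cKO, *Uchl1* averaged 32.2 ± 2.45 FPKM, *Dmrt1* 7.55 ± 0.373, *Stra8* 5.83 ± 0.329, *Kitl* 4.80 ± 0.163, *Sohlh2* 4.48 ± 0.170 and *Kit* 3.95 ± 0.980 (SD, n = 3). *Kitl*, *Sohlh2* and *Kit* overlapped as neighbours in that order, and so did *Dnmt3b* and *Foxo1*, at 1.88 ± 0.156 and 1.83 ± 0.156. In the libraries labelled control, *Kit* averaged 12.8 ± 8.32 FPKM, *Dmrt1* 12.5 ± 2.17 and *Kitl* 12.4 ± 7.52, and these neighbours could not be put in order beyond their spread. *Stra8*, below them at 7.86 ± 0.515, overlapped *Kit* and *Kitl*. It did not overlap *Dmrt1*, with 7.27 to 8.19 FPKM against 10.82 to 14.96.

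Across libraries 7 of the 10 genes shared an order. In these (*Kit*, *Kitl*, *Foxo1*, *Ccnd2*, *Dmrt1*, *Uchl1* and *Dnmt3b*) the level was highest in control replicate 3, then control replicate 1, then control replicate 2, then every library labelled cKO. Of all tested genes, 16.1% had that order. *Stra8*, *Sohlh1* and *Sohlh2* did not follow it and shared no order of their own, and 34.7% of all genes had the order of the 3 controls alone. Summed markers of Leydig cells, Sertoli cells and undifferentiated spermatogonia had the same order. For the 17 listed markers of undifferentiated spermatogonia, summed FPKM was 42.5 to 43.2 in the libraries labelled cKO. It was 51.8, 45.2 and 59.8 in control replicates 1, 2 and 3. The summed FPKM of 18 Leydig markers, all tested, was 1619 to 1778 in the libraries labelled cKO and 4572, 2268 and 10888 in control replicates 1, 2 and 3, with all 18 lower in sign. For 25 Sertoli markers it was 1344 to 1418 in the libraries labelled cKO and 2341, 1687 and 3899 in control replicates 1, 2 and 3, with 24 lower in sign. Their most abundant members, the Leydig hormone *Insl3* and the Sertoli chaperone *Clu*, averaged 1022 ± 79.8 and 400 ± 9.26 FPKM in the libraries labelled cKO, against 3840 ± 3122 and 930 ± 489 in those labelled control. Without control replicate 3 the median log2 fold change was -0.98 for the Leydig list and -0.55 for the Sertoli list, against -1.67 and -0.97 with all libraries. The part of these cells in the levels of the 10 genes was not tested.

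**Figure D3:**
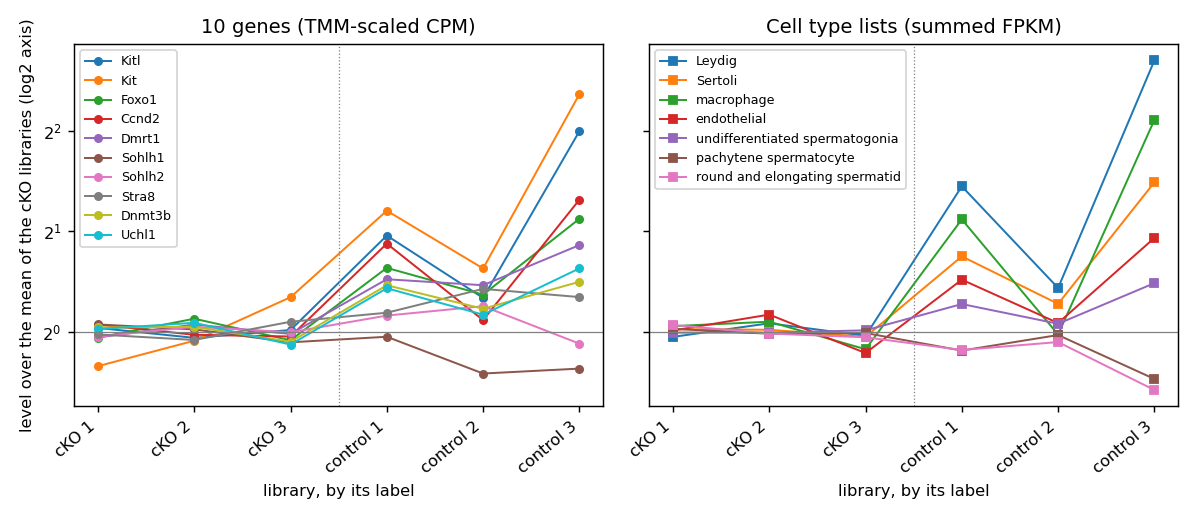
Level in each library over the mean of the 3 libraries labelled cKO, on a log2 axis, for the 10 genes (left, TMM-scaled CPM) and for 7 cell type lists (right, summed FPKM); lines join the values of a gene or list and imply no order of replicates. In control replicate 3, Kit stands at 5.15 and Kitl at 3.99. The Leydig, macrophage, Sertoli, endothelial and undifferentiated spermatogonia lists are also at their highest there, and the pachytene and spermatid lists at their lowest.

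Macrophage and endothelial markers were also lower in sign with the cKO label, in 12 of 12 genes (median log2 fold change -1.42) and 11 of 12 (-0.56). DESeq2 called 6 and 0 of them lower, where it called 7.66% of all genes lower. The macrophage and endothelial medians were -0.74 and -0.31 without control replicate 3. Summed over the macrophage markers, FPKM was 63.9 to 77.3 in the libraries labelled cKO and 70.8 to 311 in those labelled control. The endothelial list summed to 17.9 to 23.3 in the libraries labelled cKO and 22.0 to 39.5 in those labelled control, and the macrophage and endothelial sums of control replicate 2 lay within the range of those labelled cKO. *Lyz2* and *Cldn5*, the most abundant of these, averaged 17.3 ± 1.62 and 4.94 ± 0.519 FPKM in the libraries labelled cKO, against 49.99 ± 37.3 and 7.69 ± 2.24 in those labelled control. The peritubular myoid list of 9 ran from 234 to 250 in the libraries labelled cKO and from 244 to 284 in those labelled control. In sign, 8 of the 9 were lower (median log2 fold change -0.59, and -0.37 without control replicate 3). DESeq2 called *Myh11* and *Myl9* lower, 2 of the 9, beside 7.66% of all genes, and both were named after their values were seen. The exception was *Actg2*, which makes up most of that sum: it averaged 177 ± 4.15 FPKM with the cKO label, against 149.7 ± 20.4 with the control label. Mast cells also carry KIT. Of 10 mast cell markers, *Cpa3*, *Mcpt4*, *Tpsb2*, *Tpsab1* and *Cma1* were under 1 FPKM in all libraries, 3 more were not listed, and the less specific *Hdc* averaged 9.69 ± 0.477 FPKM with the cKO label, against 13.2 ± 3.65 with the control label. The last, *Gata2*, which other cells also express, had the other sign, with 7.41 ± 1.05 FPKM with the cKO label, against 5.71 ± 0.283 with the control label (log2 0.47, SE 0.15, edgeR adjusted p = 0.166). Markers of later germ cells had the other sign, with all 12 pachytene and all 15 spermatid markers higher with TMM scaling. Their median log2 fold changes were 0.30 and 0.37, and 0.18 and 0.24 without control replicate 3. With all libraries edgeR called 0 of them, and DESeq2 called 1 of 12 and 1 of 15 higher, beside 0.405% of all genes. *Ldhc* averaged 2139 ± 47.7 FPKM in the libraries labelled cKO, against 1856 ± 266 in those labelled control. *Prm1* averaged 7818 ± 406 FPKM in the libraries labelled cKO, against 6402 ± 1180 in those labelled control.

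The wider KIT pathway was lower in sign in most members. Of 33 genes for adaptors, kinases and phosphatases that act on or below the receptor, 25 were lower and 8 higher in the libraries labelled cKO, with a median log2 fold change of -0.34 (-0.18 without control replicate 3). edgeR called 0, and DESeq2 called *Grb2*, *Foxo3* and *Fyn* lower, 3 of 33, beside 7.66% of all genes. *Fyn*, a Src family kinase, averaged 10.2 ± 0.823 FPKM in the libraries labelled cKO, against 19.6 ± 7.16 in those labelled control (log2 -0.84, SE 0.24, edgeR adjusted p = 0.166). *Ptpn6*, the phosphatase SHP-1 that damps KIT, averaged 0.54 ± 0.148 FPKM with the cKO label, against 1.4 ± 0.599 with the control label (log2 -1.26, SE 0.39). *Pik3cd*, a catalytic subunit of PI3 kinase, lay the other way, at 18.4 ± 0.344 FPKM with the cKO label, against 14.5 ± 2.40 with the control label (log2 0.44, SE 0.14, edgeR adjusted p = 0.166). Without control replicate 2, edgeR called 17 of the 33 lower and *Pik3cd* higher, where it called 20.7% of all genes lower and 11.0% higher. Most of these genes are used by many cell types.

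Other genes of spermatogonia and of meiotic entry showed no common direction with the 10. Of 22 tested genes of differentiating spermatogonia, 11 were lower and 11 higher, with a median log2 fold change of -0.011 that lay on either side of 0, between -0.109 and 0.061, over the alternatives. The retinoic acid receptor *Rara*, the pluripotency-linked RNA-binding gene *Lin28a* and the cyclin D partner *Cdk4* had the smallest p. They averaged 6.41 ± 0.662, 0.923 ± 0.134 and 16.0 ± 1.86 FPKM in the libraries labelled cKO, against 10.4 ± 3.14, 1.497 ± 0.140 and 25.3 ± 8.04 FPKM in those labelled control. In TMM-scaled CPM the groups did not overlap for 4 lower genes of the list, *Lin28a* among them, and for 5 higher ones. These 5 were *Dmrtb1*, *Zfp217*, *Esx1*, *Kdm1a* and *Ccnd3*. *Dmrtb1*, the most abundant of the list, averaged 321.5 ± 21.9 FPKM with the cKO label, against 267.6 ± 49.5 with the control label. Its log2 fold change was 0.36 (SE 0.15, edgeR adjusted p = 0.179). Of 17 genes of meiotic entry, 14 were higher and 3 lower, with a median of 0.20 (0.089 without control replicate 3), the opposite sign from *Stra8*. The meiotic cohesin subunits *Rec8* and *Stag3* averaged 35.9 ± 1.96 and 122 ± 4.03 FPKM in the libraries labelled cKO, against 29.9 ± 5.99 and 101 ± 17.4 in those labelled control. *Spo11*, which cuts DNA to start recombination, averaged 34.4 ± 1.58 FPKM with the cKO label, against 30.2 ± 2.46 with the control label. edgeR and DESeq2 called 0 genes of either list, where DESeq2 called 7.66% of all genes lower and 0.405% higher. Without control replicate 2, edgeR called 3 differentiating genes lower, *Rara*, *Cdk4* and *Dnmt3a*, of 22, and 5 of 17 meiotic genes higher, *Spo11*, *Sycp1*, *Sycp3*, *Stag3* and *Smc1b*, beside 20.7% of all genes lower and 11.0% higher.

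Undifferentiated spermatogonia were thinly covered. Of 18 markers, 13 were tested, 8 lower and 5 higher in sign, with a median log2 fold change of -0.12 (-0.35 without control replicate 2 and -0.06 without control replicate 3), and 8 of the 17 listed were under 1 FPKM in all libraries. *Itga6*, an integrin subunit that other cells also carry, averaged 2.41 ± 0.110 FPKM in the libraries labelled cKO, against 6.72 ± 3.55 in those labelled control (log2 -1.38, SE 0.33). *Etv5* averaged 6.28 ± 0.233 FPKM with the cKO label, against 10.5 ± 3.34 with the control label. *Zbtb16*, which encodes the stem cell factor PLZF, averaged 0.76 ± 0.0889 FPKM with the cKO label, against 1.74 ± 0.928 with the control label. These had the smallest edgeR p of the list. The 5 of higher sign were *Gfra1*, *Id4*, *Lhx1*, *Bcl6b* and *Pou5f1*. *Id4*, the most abundant of the list, averaged 19.3 ± 0.72 FPKM with the cKO label, against 18.6 ± 1.3 with the control label (log2 0.15, SE 0.12). edgeR called 0 genes of this list. DESeq2 called *Itga6* alone lower, 1 of the 11 it tested, where it called 7.66% of all genes lower.

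**Figure D4:**
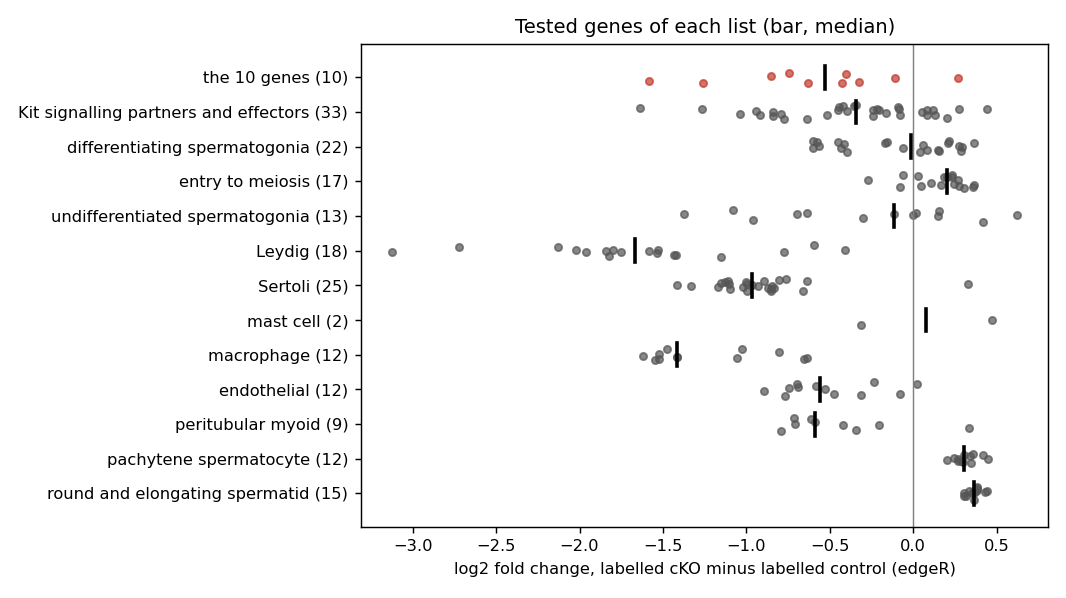
Log2 fold change, labelled cKO minus labelled control, of every tested gene in the 10 genes and in each list, with bars at the medians and the number of genes in brackets. The 10 genes have a median of -0.53, between the Leydig (-1.67) and Sertoli (-0.97) lists and the pachytene (0.30) and spermatid (0.37) lists.

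The genes whose log2 CPM followed that of *Kit* most closely over the 6 libraries were *Fundc1*, *Kdm7a*, *Ercc6*, *Cwc27* and *Dync1i1*, with Pearson's r of 0.9994 to 0.9979. *Fundc1*, a mitophagy receptor gene, had 0.86, 1.0 and 1.32 FPKM in the libraries labelled cKO, against 2.30, 1.66 and 4.83 FPKM in those labelled control. *Kitl*, at r = 0.968, ranked 786. The correlation with *Kit* was 0.952 for *Foxo1*, 0.940 for *Dmrt1*, 0.715 for *Stra8*, -0.169 for *Sohlh2* and -0.671 for *Sohlh1*, as a description of these libraries.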

How the data were processed

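The 6 deposited tables, 3 labelled cKO and 3 labelled control, were made with RSEM, per the submitters' processing notes, where mm10, DESeq2, Bowtie2 2.2.5, HISAT2 2.0.4 and bcl2fastq 2.16 also appear without a stated role. Whether counting used strand is not stated there. Per the file headers, the deposited expected counts are not normalized, FPKM divides the authors' counts by transcript length and library depth, and the length is an abundance-weighted mean in bases. The lowest FPKM listed is 0.01, and a gene not listed in a library was taken as 0. Groups follow sample titles. Expected counts, once rounded, went into edgeR 4.0.16 (R 4.3.3): filterByExpr (minimum count 10, total 15), TMM scaling, quasi-likelihood F-test and Benjamini-Hochberg adjustment over 18269 genes. The common biological coefficient of variation was 22.8%. Alternatives used DESeq2 1.42.0, limma 3.58.1 on log2 FPKM, other scalings and filters, libraries left out and a replicate block. The members and lists were chosen with earlier results of these data known. Genes named are the 10, *L3mbtl2*, the 3 of smallest p in each of 4 pathway lists, the most abundant of each cell type list and the 5 most like *Kit*; others were chosen after their values were seen. In the list of meiotic entry, *Gm4969*, *Meiosin* and *Bhmg1* matched no symbol.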

Additional observations from a re-analysis of the deposited data

How the results depend on the processing

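All 10 genes kept their direction in every alternative that could test them (139 fits of single genes), and 10 of these fits called a gene that edgeR with all libraries did not: *Kit*, *Kitl*, *Dmrt1* and *Foxo1* in DESeq2, and these with *Ccnd2* and *Uchl1* without control replicate 2. So 4 of the 10 were called lower in DESeq2, and 0 to 6 when a library was left out. DESeq2 called 72 genes higher and 1363 lower of all, limma on log2(FPKM + 1) and log2(FPKM + 0.1) called 1 higher each, and leaving out a library gave 0 to 2049 higher and 0 to 3851 lower, the upper values without control replicate 2. The cause of these differences was not tested. The median of the 10 ran from -0.60 without control replicate 2 to -0.42 without control replicate 3, and from -0.67, with at least 5 CPM in 3 libraries, which drops *Sohlh1*, to -0.51 over the others. Library totals alone put the median of all genes at -0.10 and that of the 10 at -0.63. The difference in the *Kit* share ran from -8.64 to -2.65 points. The length difference of *Dnmt3b* was 15.7 bases with all libraries and ran from -132.6, without cKO replicate 1, to 120.8 with 1 library left out. Same-numbered libraries did not deviate together (r = 0.043, -0.007 and -0.039), not every library correlated best with its own number, and with the replicate block edgeR called 0 genes and the median of the 10 was -0.52.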
